A study of Mus musculus with 6 samples.

Results

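The TNF receptor superfamily genes examined here are 8 costimulatory or signalling receptors carried by regulatory T cells: Tnfrsf4 (OX40), Tnfrsf9 (CD137), Tnfrsf18 (GITR), Tnfrsf1a (the type 1 TNF receptor), Tnfrsf1b (the type 2 TNF receptor), Tnfrsf25 (death receptor 3), Tnfrsf14 (HVEM) and Cd27. They were matched by gene symbol from a list of receptors with a known role on these cells. All 8 were found among the 24424 genes of the deposited count table and among the 23393 genes of the deposited normalized table, and all 8 passed the filter on low counts in both. The study sequenced RNA from regulatory T cells of mouse spleen and peripheral lymph nodes as 6 libraries, to find how the transcriptome changes when the transcription factor Bcl11b is removed. WT at steady state had 2 libraries, with the strain label Bcl11bF/F and no Cre named. KO at steady state had 2 libraries, with the strain label Bcl11bF/WT Foxp3YFP-Cre +/- and the genotype label KO. That strain label names 1 floxed and 1 wild-type Bcl11b allele, which does not match a full knockout, and the labels do not settle which holds, so KO here is the label's name. KO EAE had 2 libraries with the same strain label as KO, taken in EAE (experimental autoimmune encephalomyelitis, used to model multiple sclerosis in mice). Cre expressed from the Foxp3 locus acts in Foxp3-expressing cells, the lineage that was sorted. By the strain labels, WT and KO differ in the Foxp3YFP-Cre allele as well as in Bcl11b, and the 2 cannot be told apart here. Ages are not given, and WT cells in EAE were not analysed here.

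TNF receptor superfamily members are cell surface receptors that bind trimeric ligands of the TNF family. OX40, CD137, GITR, CD27, HVEM and the type 2 TNF receptor recruit TRAF adaptor proteins and activate NF-kappaB, whereas the type 1 TNF receptor and death receptor 3 also carry a death domain that binds the adaptor TRADD. On regulatory T cells, OX40, GITR and the type 2 TNF receptor are known for high expression and for support of survival and expansion, CD137 is known as an activation marker, and death receptor 3 is known as a receptor whose stimulation expands these cells.

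The count table held 14663542 to 16904312 reads in a library, and each member had between 402 and 4673 reads in every library, so counting error alone was between 1.46% and 4.99% of a value. Bcl11b itself was read at 420 and 425 counts-per-million (CPM, after TMM scaling between libraries) in WT, 371 and 370 CPM in KO, and 404 and 278 CPM in KO EAE. Its log2 change between WT and KO, -0.19 ± 0.17 (SE), was not called by the quasi-likelihood test of edgeR (adjusted p = 0.527). The labels do not name the floxed part, and whether a count over the whole gene shows its loss was not tested. In the reads recovered from the normalized table, described further on, Bcl11b was at -0.87 ± 0.14 (SE; edgeR, adjusted p = 0.0987). It was lower at -0.80 in the authors' deposited table (adjusted p = 7.91e-08). The count table did not show a drop of that size, and the reason was not tested. Foxp3, which defines the lineage, was read in every library, at 211 and 206 CPM in WT, 165 and 155 CPM in KO, and 163 and 149 CPM in KO EAE. Markers of other cells moved with the groups: the 12 myeloid and dendritic cell genes listed (such as Adgre1, Csf1r and Itgax) summed to 144.5 and 153.6 CPM in WT, 1087 and 1320 CPM in KO, and 889.7 and 1110 CPM in KO EAE, with 8 of 12 higher in KO than in WT and none at 0 in any library. Of all genes tested, 9.41% were called higher in KO than in WT. The 14 T cell identity genes summed to 2810 to 3095 CPM in all 6 libraries. Nothing in the labels ties a replicate to its own animal, so p-values measure only how these samples differ among themselves, and that spread could be technical.

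The promoter windows of the 4 receptors called between KO and WT in the count table are printed because they show how different the starts of these genes are. Each is the 250 bases before a RefSeq transcription start (build GRCm38.p6, equal in coordinates to mm10), read 5′ to 3′ on the strand of the gene, with matches to the searched motifs in capitals. The motifs, searched on both strands, were the NF-kappaB (kappaB) consensus, an AP-1 site (TGANTCA), a STAT site (TTCNNNGAA) and a forkhead site (GTAAACA).
Tnfrsf4 (chr4:156013445-156013694, plus strand): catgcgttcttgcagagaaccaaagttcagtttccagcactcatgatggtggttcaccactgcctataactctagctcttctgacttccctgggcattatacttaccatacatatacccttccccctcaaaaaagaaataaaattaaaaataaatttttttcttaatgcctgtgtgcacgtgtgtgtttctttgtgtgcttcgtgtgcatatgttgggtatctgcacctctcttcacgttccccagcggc
Tnfrsf9, second start (chr4:150927749-150927998, plus strand): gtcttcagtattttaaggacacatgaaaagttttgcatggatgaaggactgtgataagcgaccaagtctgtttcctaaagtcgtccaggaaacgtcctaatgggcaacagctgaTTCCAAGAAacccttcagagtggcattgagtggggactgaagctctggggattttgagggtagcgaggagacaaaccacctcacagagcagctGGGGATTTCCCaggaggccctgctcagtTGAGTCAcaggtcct
Tnfrsf18 (chr4:156026072-156026321, plus strand): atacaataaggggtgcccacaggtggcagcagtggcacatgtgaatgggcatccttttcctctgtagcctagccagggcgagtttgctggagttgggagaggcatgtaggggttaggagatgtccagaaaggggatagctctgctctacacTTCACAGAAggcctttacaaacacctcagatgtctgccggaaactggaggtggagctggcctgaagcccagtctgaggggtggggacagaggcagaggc
Tnfrsf1a (chr6:125349473-125349722, plus strand): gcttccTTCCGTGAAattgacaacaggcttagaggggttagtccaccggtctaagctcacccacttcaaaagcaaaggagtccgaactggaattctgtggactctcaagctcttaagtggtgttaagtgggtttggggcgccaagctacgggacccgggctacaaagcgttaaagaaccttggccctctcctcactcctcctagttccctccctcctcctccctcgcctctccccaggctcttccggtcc
The second Tnfrsf9 start held 4 matches: a STAT match beginning 136 bases before the start, 2 kappaB matches at 43 and 42 bases that share all but 1 base, and an AP-1 match at 15 bases. The Tnfrsf18 window had 1 STAT match at 99 bases and the Tnfrsf1a window 1 STAT match at 244 bases. None of the searched letters occurred in the Tnfrsf4 window or at the first Tnfrsf9 start, whose window is not printed. Which Tnfrsf9 start these cells use was not tested. Among the members not printed, Tnfrsf1b had a STAT match at 181 bases, the second start of Tnfrsf25 had a kappaB match at 28 and a STAT match at 16 bases, and the windows of Tnfrsf14, Cd27 and the first start of Tnfrsf25 had none. Of 32851 RefSeq windows of the same length, 7.25% held the kappaB consensus, 6.75% the AP-1 site, 7.02% the STAT site and 3.17% the forkhead site. A match describes the letters of a window and is not evidence that a factor binds there.

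In the count table, OX40, CD137 and GITR were lower in KO than in WT regulatory T cells, and the type 1 TNF receptor was higher. Of these 4, only Tnfrsf4 was also called in the authors' deposited table, described further on. Tnfrsf4 fell most of the 8 on the log2 scale, followed by Tnfrsf9 and Tnfrsf18. The other 4 receptors were not called. In all, 3 of 8 members were lower, against 3.46% of all 14548 genes tested, and 1 of 8 was higher, against 9.41% of all genes. The median log2 change was -0.19 over the members and -0.01 over all genes tested.

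Tnfrsf4, whose product OX40 binds OX40 ligand on antigen-presenting cells, had 106 and 100.7 CPM in WT replicates 1 and 2, 63.8 and 66.5 CPM in KO, and 72.9 and 65.7 CPM in KO EAE. Both WT libraries lay above all 4 libraries of the other groups. The mean was 103.3 ± 3.75 CPM in WT and 65.2 ± 1.93 CPM in KO (SD, n = 2 each). In KO the log2 change against WT was -0.67 ± 0.08 (SE; edgeR, adjusted p = 0.00424, by Benjamini-Hochberg over all genes tested).

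Tnfrsf9 encodes CD137, which T cells induce after activation. It had 127.8 and 111.6 CPM in WT, 81.8 and 78.1 CPM in KO, and 86.1 and 92.0 CPM in KO EAE. WT libraries were again above all others, and both KO EAE libraries lay between the KO and the WT libraries. KO differed from WT by a log2 change of -0.58 ± 0.09 (SE; edgeR, adjusted p = 0.0106).

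Tnfrsf18, which encodes GITR and lies beside Tnfrsf4 on the chromosome, had 103.7 and 94.5 CPM in WT, 69.8 and 77.4 CPM in KO, and 76.8 and 77.4 CPM in KO EAE. The WT libraries stood above the other 4, and KO replicate 2 and both KO EAE libraries lay close together. Its log2 change in KO against WT was -0.43 ± 0.09 (SE; edgeR, adjusted p = 0.0267).

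Tnfrsf1a went the other way. This receptor responds to soluble TNF and lymphotoxin in most cell types and can signal either NF-kappaB activation or death. It had 60.4 and 70.2 CPM in WT, 92.0 and 96.6 CPM in KO, and 83.6 and 79.2 CPM in KO EAE, so that both WT libraries lay below all others. The difference of KO from WT was a log2 change of 0.53 ± 0.10 (SE; edgeR, adjusted p = 0.0173). Myeloid cells also express Tnfrsf1a, and the summed myeloid and dendritic markers given above rose in the same libraries; their part in this result was not tested.

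Tnfrsf1b, the type 2 TNF receptor, had the most reads of the 8 in every library of the count table. In the normalized table Cd27 had more in WT replicate 2 and KO replicate 2, and Tnfrsf18 had more in KO replicate 2. The levels of Tnfrsf1b in the count table were 292.4 and 268.2 CPM in WT, 249.6 and 253.1 CPM in KO, and 245.8 and 278.3 CPM in KO EAE. The KO libraries lay just below the WT libraries and within the range of KO EAE, and KO against WT gave a log2 change of -0.16 ± 0.09 (SE; edgeR, adjusted p = 0.332).

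Cd27, the receptor of CD70 and a costimulator of T cells, had 139.3 and 134.4 CPM in WT, 119 and 113.9 CPM in KO, and 110.4 and 109.5 CPM in KO EAE. The 3 groups did not overlap, but the KO against WT log2 change of -0.23 ± 0.07 (SE) missed the threshold (edgeR, adjusted p = 0.0778).

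Tnfrsf25, which encodes death receptor 3 and binds the ligand TL1A, had 81.6 and 84.1 CPM in WT, 88.95 and 79.4 CPM in KO, and 68.3 and 60.5 CPM in KO EAE. WT and KO overlapped, and both KO EAE libraries were below the rest. KO against WT gave a log2 change of 0.02 ± 0.10 (SE; edgeR, adjusted p = 0.902).

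Tnfrsf14 encodes HVEM, which binds LIGHT as a ligand and BTLA and CD160 as counter-receptors. It had the fewest reads of the 8, with 30.7 and 24.6 CPM in WT, 39.6 and 32.35 CPM in KO, and 33.1 and 29.2 CPM in KO EAE. WT and KO did not overlap, but replicates within a group differed by up to 1.25-fold, and the log2 change of 0.38 ± 0.17 (SE) was not called (edgeR, adjusted p = 0.205).

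**Figure D1:**
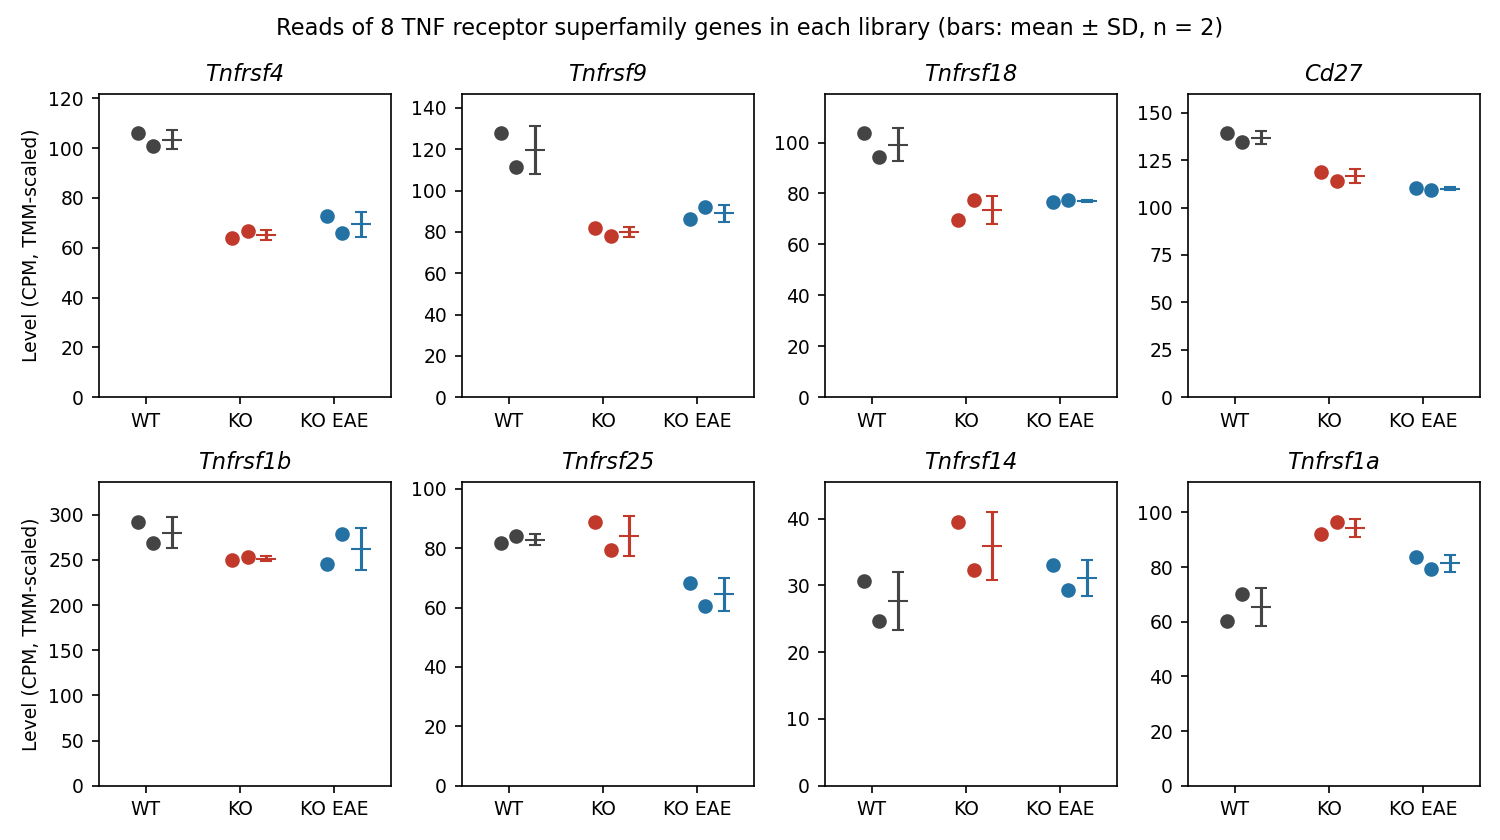
Level of each of the 8 receptors in each of the 6 libraries of the count table, in CPM after TMM scaling, one panel per gene; points are libraries and bars mark the group mean ± SD (n = 2). Tnfrsf4, Tnfrsf9 and Tnfrsf18 are highest in both WT libraries, Tnfrsf1a is lowest in both WT libraries, and Tnfrsf25 is lowest in both KO EAE libraries.

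The 4 calls rested on few libraries. Leaving out 1 of the 4 WT and KO libraries at a time left 0 to 3 of the 4 receptors called: Tnfrsf4 lost its call without KO replicate 1 (edgeR, adjusted p = 0.0572), Tnfrsf9 and Tnfrsf1a kept theirs only without WT replicate 2 (up to 0.0968 and 0.105 otherwise), and Tnfrsf18 lost its call without any 1 of the 4 (0.0667 to 0.201). In each of these fits the direction of the 4 was the same. These are bulk libraries, so fewer cells carrying a receptor and less of its RNA per cell cannot be told apart.

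Ratios of reads within a library do not depend on the scaling between libraries. The reads of Tnfrsf4 per read of Tnfrsf1a were 1.76 and 1.43 in WT, 0.693 and 0.689 in KO, and 0.872 and 0.830 in KO EAE. Tnfrsf1b outnumbered Tnfrsf1a, the other TNF receptor, by 4.84 and 3.82 in WT, 2.71 and 2.62 in KO, and 2.94 and 3.51 in KO EAE. Tnfrsf4 per read of its neighbour Tnfrsf18 was 1.02 and 1.07 in WT, 0.915 and 0.860 in KO, and 0.949 and 0.849 in KO EAE. For these 3 ratios both WT libraries of the count table were above the other 4, as they were for Tnfrsf4 per read of Cd27. For Tnfrsf9 per read of Tnfrsf18 they were not. It was 1.23 and 1.18 in WT, 1.17 and 1.01 in KO, and 1.12 and 1.19 in KO EAE. The ratios use the same reads as the calls above, so they are not separate evidence. With 2 libraries against 2 an exact permutation test cannot go below p = 0.333, so no test of the ratios was made.

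Per length, the order of the mean levels changed between groups in the count table. Dividing by the exon length of each gene (GENCODE M21 annotation, since that used for counting is not given), mean WT levels in CPM per kilobase were 75.7 for Tnfrsf4, 73.4 for Tnfrsf1b, 65.0 for Tnfrsf18, 58.8 for Cd27, 44.0 for Tnfrsf9, 36.4 for Tnfrsf25, 25.2 for Tnfrsf1a and 19.2 for Tnfrsf14. The WT libraries of Tnfrsf4 and Tnfrsf1b overlapped, and no other neighbours in that order did. In KO, Tnfrsf1b led at a mean of 65.8 CPM per kilobase, before Cd27 at 50.02, Tnfrsf18 at 48.3 and Tnfrsf4 at 47.7. Libraries of Tnfrsf18 overlapped those of Cd27 and of Tnfrsf4. Tnfrsf25 followed at 36.97 and Tnfrsf1a at 36.4, which overlapped, then Tnfrsf9 at 29.4 and Tnfrsf14 at 25 CPM per kilobase, so Tnfrsf1a stood above Tnfrsf9 in KO and below it in WT. In KO EAE the mean levels were 68.6 for Tnfrsf1b, 50.8 for Tnfrsf4, 50.6 for Tnfrsf18, 47.2 for Cd27, 32.7 for Tnfrsf9, 31.4 for Tnfrsf1a, 28.3 for Tnfrsf25 and 21.7 CPM per kilobase for Tnfrsf14. There the libraries of Tnfrsf4 and Tnfrsf18 overlapped, as did those of Tnfrsf9 and Tnfrsf1a. In the normalized table, described further on, the order was the same in WT and KO. The means there in CPM per kilobase, WT then KO, were 227.8 and 208.5 for Tnfrsf18, 199.7 and 144.9 for Cd27, 187.2 and 107.3 for Tnfrsf4 and 130.8 and 92.1 for Tnfrsf1b. Tnfrsf9, Tnfrsf25, Tnfrsf1a and Tnfrsf14 followed in that order, so Tnfrsf1a stayed below Tnfrsf9 in both groups of that table.

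No receptor was called between KO cells in EAE and at steady state. Between KO EAE and KO, edgeR called 0 of 8 members, against 0% of all genes called lower and 0.0137% called higher (2 of 14548). At an unadjusted p below 0.05, edgeR gave 1 of 8 members and 1378 of 14548 genes, and DESeq2 called 0 of 8. That member was Tnfrsf25, at a log2 change of -0.39 ± 0.10 (SE; edgeR, adjusted p = 0.465) with no overlap between the groups. The log2 change was 0.09 ± 0.08 for Tnfrsf4, 0.07 ± 0.09 for Tnfrsf18, 0.16 ± 0.09 for Tnfrsf9, -0.21 ± 0.10 for Tnfrsf1a, 0.06 ± 0.09 for Tnfrsf1b, -0.21 ± 0.17 for Tnfrsf14 and -0.08 ± 0.07 for Cd27 (SE; edgeR, adjusted p from 0.549 to 0.831).

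Compared with WT, KO EAE cells had lower Tnfrsf4, Tnfrsf9 and Cd27. These 3 of 8 members stood against 1.95% of all genes called lower, and 0 of 8 were higher against 7.41% of all genes. The log2 change was -0.58 ± 0.08 for Tnfrsf4 (SE; edgeR, adjusted p = 0.00963), -0.43 ± 0.09 for Tnfrsf9 (SE; edgeR, adjusted p = 0.0406) and -0.32 ± 0.07 for Cd27 (SE; edgeR, adjusted p = 0.0389). Tnfrsf18 at -0.36 ± 0.09 (SE; adjusted p = 0.0586) and Tnfrsf25 at -0.36 ± 0.10 (SE; adjusted p = 0.0739) did not overlap WT and missed the threshold in edgeR, as did Tnfrsf1a at 0.32 ± 0.10 (SE; adjusted p = 0.101). Tnfrsf1b at -0.10 ± 0.09 and Tnfrsf14 at 0.17 ± 0.17 (SE) overlapped WT. The KO and KO EAE comparisons share the WT libraries, so they are not independent of each other. KO EAE and WT differ in both genotype label and disease, which cannot be told apart without WT cells in EAE.

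**Figure D2:**
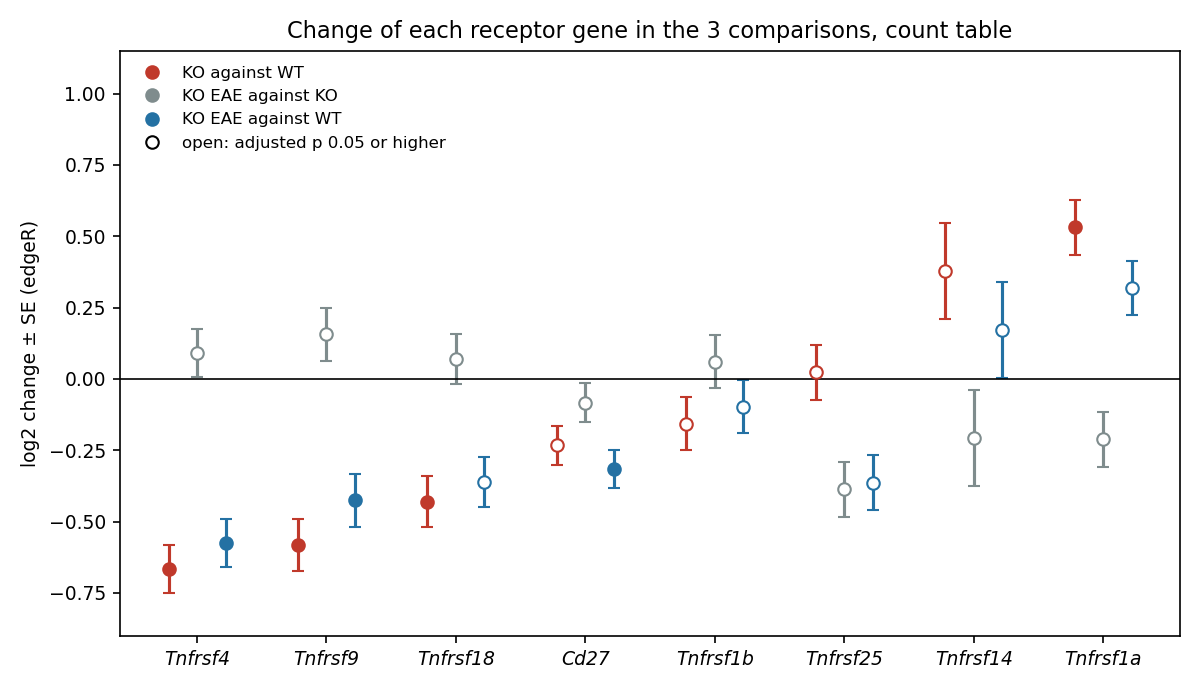
Log2 change of each receptor in the 3 comparisons of the count table, coloured by comparison (edgeR); bars are ± 1 SE and filled points passed the adjusted threshold of 0.05. Tnfrsf4 and Tnfrsf9 lie below 0 and are called in both comparisons with WT, and no point is filled for KO EAE against KO.

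The call of Cd27 in KO EAE was lost without WT replicate 1, WT replicate 2 or KO EAE replicate 2 (edgeR, adjusted p up to 0.302), that of Tnfrsf9 without any 1 of the 4 libraries (0.0537 to 0.293), and that of Tnfrsf4 without either WT library (up to 0.0887). Without KO EAE replicate 1, Tnfrsf18 and Tnfrsf25 were called. With libraries scaled on T cell genes, Tnfrsf4 alone was called.

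Of the other genes of the pathway, the GITR ligand, LIGHT and Cd160 were higher in KO in the count table and Lta was lower. Among 9 of 10 ligands and counter-receptors tested (Cd70 did not pass the filter), 3 were higher and 1 lower in KO than in WT. All genes tested had 9.41% called higher and 3.46% called lower. The median log2 change was 0.92 over the list, beside -0.01 over all genes. Tnfsf18, the GITR ligand, rose from 4 and 4 reads in WT to 54 and 38 reads in KO and 31 and 50 in KO EAE (KO against WT log2 3.48 ± 0.46, SE; edgeR, adjusted p = 0.00526). Tnfsf14, which encodes LIGHT, rose from 14.4 and 19.5 CPM to 50.75 and 55.3 CPM (log2 1.65 ± 0.16, SE; edgeR, adjusted p = 0.00136), with 48.6 and 48.1 CPM in KO EAE. Cd160, a counter-receptor of HVEM, rose from 23.6 and 22.2 CPM to 53.2 and 44.6 CPM (log2 1.10 ± 0.16, SE; edgeR, adjusted p = 0.00759), with 44.4 and 57.2 CPM in KO EAE. Lta, which encodes a ligand of both TNF receptors, fell from 56.2 and 54.75 CPM to 40.9 and 32.5 CPM (log2 -0.59 ± 0.14, SE; edgeR, adjusted p = 0.047), a call lost when libraries were scaled on T cell genes. Btla, the most read of the list at 122.1 CPM on average, was not called (log2 0.16 ± 0.10, SE; edgeR, adjusted p = 0.355). In KO EAE against WT, 7.41% of all genes were called higher and 1.95% lower. Of the list 4 were higher there, the same 3 and Tnfsf4 (the OX40 ligand), and 1 lower, Lta. Tnfsf4 rose by 1.35 ± 0.30 on the log2 scale (SE; edgeR, adjusted p = 0.0448) from 26 and 24 reads in WT to 62 and 61 reads. Of these 5 calls, those of Tnfsf4 and Lta were lost without WT replicate 1, WT replicate 2 or KO EAE replicate 2 (edgeR, adjusted p up to 0.266 and 0.21), and those of Tnfsf18 and Cd160 without either WT library (up to 0.0756 and 0.058). Of the 5 NK cell markers, 4 were higher in KO than in WT (2 or 3 with 1 WT or KO library left out), summing to 37.7 and 34.5 CPM in WT, 127.4 and 113.7 CPM in KO, and 95.85 and 118.1 CPM in KO EAE. NK cells express Cd160 and antigen-presenting cells express the GITR ligand. The myeloid and dendritic sum given above rose in the same libraries, and the part of these other cells was not tested.

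Adaptors and signal enzymes act downstream of the receptors. Of 20 tested, 0 were higher and 2 were lower in KO than in WT, with a median log2 change of -0.16. Over all genes tested, 9.41% were called higher and 3.46% lower. Traf6, which encodes a TRAF adaptor and ubiquitin ligase, fell from 228.6 and 227 CPM to 135.5 and 154.7 CPM (log2 -0.65 ± 0.11, SE; edgeR, adjusted p = 0.0125). Birc2, which encodes an inhibitor of apoptosis recruited by TRAF2, fell from 181 and 174 CPM to 123.6 and 126.1 CPM (log2 -0.51 ± 0.12, SE; edgeR, adjusted p = 0.046). Tnfaip3, an NF-kappaB-induced brake and the most read of the list, had 599.8 and 617.3 CPM in WT but 326.8 and 522.2 CPM in the KO libraries, and was not called (log2 -0.52 ± 0.21, SE; edgeR, adjusted p = 0.175). In KO EAE against WT edgeR called 0 of 20 (9 at an unadjusted p below 0.05) and DESeq2 called 4, all lower.

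Of the NF-kappaB genes, Rel, Nfkb2 and Nfkbib were lower in KO in the count table. Of 9 tested, 3 were lower and 0 higher in KO than in WT, with a median log2 change of -0.28. Among all genes tested, 3.46% were called lower and 9.41% higher. Rel, which encodes the c-Rel subunit, had 135.5 and 130.3 CPM in WT, 52.3 and 60.5 CPM in KO, and 97.4 and 96.3 CPM in KO EAE. The log2 change of Rel was -1.24 ± 0.09 in KO against WT (SE; edgeR, adjusted p = 0.000444) and -0.46 ± 0.09 in KO EAE against WT (SE; edgeR, adjusted p = 0.0284), the second lost without WT replicate 1, WT replicate 2 or KO EAE replicate 2 (up to 0.193). Between KO and KO EAE it was 0.78 ± 0.09 (SE; edgeR, adjusted p = 0.267), and DESeq2 gave an adjusted p of 4.66e-06. Nfkb2, the p100 subunit gene, fell by 0.44 ± 0.07 (SE; edgeR, adjusted p = 0.0125) and Nfkbib, an inhibitor gene, fell by 0.38 ± 0.07 (SE; edgeR, adjusted p = 0.0226) on the log2 scale. Nfkb1, the most read of the list, was not called (log2 -0.15 ± 0.08, SE; edgeR, adjusted p = 0.268). Over these 3 lists, the KO against WT calls of Tnfsf14 and Rel held with each WT or KO library left out, and the others were lost without at least 1 of them.

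**Figure D3:**
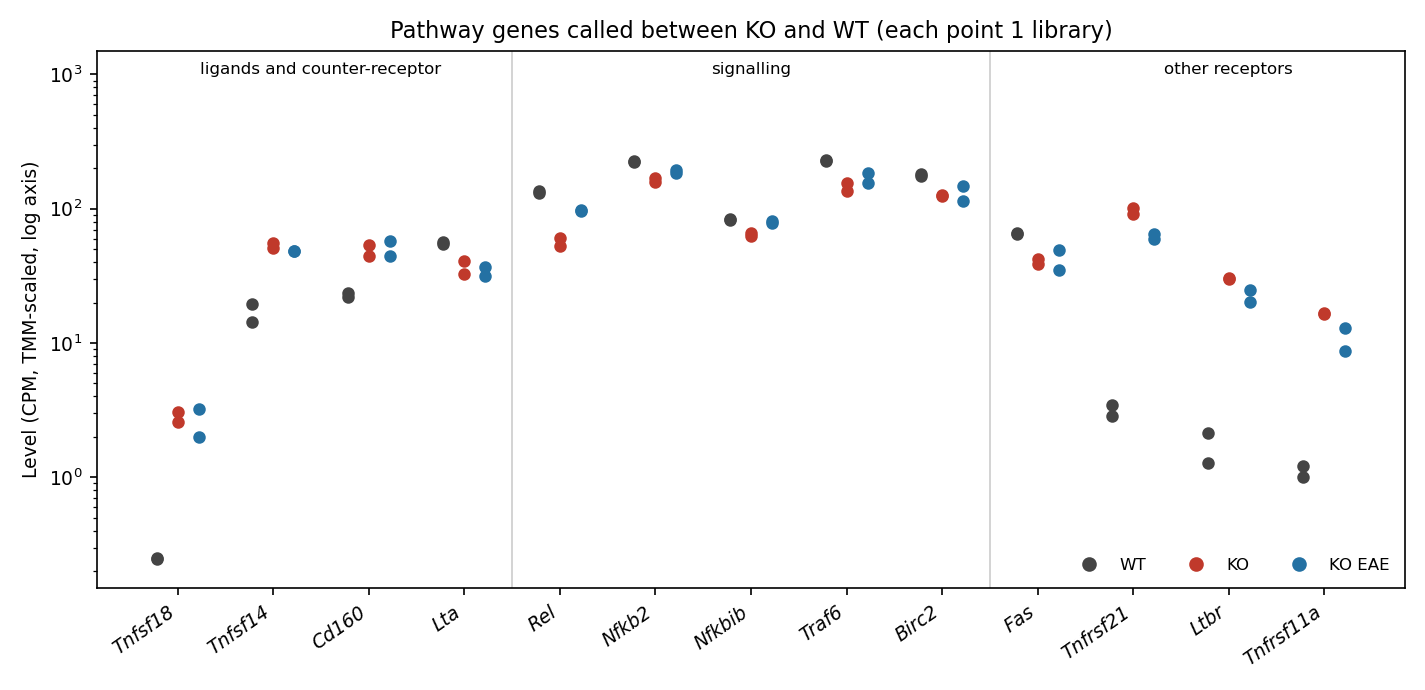
Levels of the pathway genes called between KO and WT in each of the 6 libraries, in CPM on a log axis; each point is 1 library, coloured by group. Tnfrsf21, Ltbr, Tnfrsf11a, Tnfsf18, Tnfsf14 and Cd160 are higher in all 4 KO and KO EAE libraries than in WT, and Rel is lower in KO, with KO EAE between the 2 other groups.

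The 15 other TNF receptor superfamily genes tested (of 20) had 3 higher and 1 lower in KO than in WT, with a median log2 change of 0.01. The shares over all genes tested were 9.41% higher and 3.46% lower. Tnfrsf21, which encodes death receptor 6, rose from 2.88 and 3.43 CPM in WT to 91.2 and 101.5 CPM in KO and 59.9 and 64.65 CPM in KO EAE (KO against WT log2 4.93 ± 0.13, SE; edgeR, adjusted p = 3.06e-05). Ltbr encodes the lymphotoxin beta receptor, known from stromal and myeloid cells, and had 2.13 and 1.29 CPM in WT against 29.8 and 30.4 CPM in KO (log2 4.14 ± 0.27, SE; edgeR, adjusted p = 0.000294). Tnfrsf11a encodes RANK, known from myeloid and osteoclast lineages, and had 1.001 and 1.23 CPM in WT against 16.35 and 16.7 CPM in KO (log2 3.88 ± 0.31, SE; edgeR, adjusted p = 0.000619). Fas fell from 64.8 and 66.45 CPM to 38.6 and 42.4 CPM (log2 -0.70 ± 0.16, SE; edgeR, adjusted p = 0.0403), a call lost without any 1 of the 4 libraries. The calls of Tnfrsf21, Ltbr and Tnfrsf11a held with each library left out. Tnfrsf26, the most read of the list at 75.5 CPM, was not called (log2 0.06 ± 0.09, SE; edgeR, adjusted p = 0.725). The myeloid and dendritic sum, which rose in the same libraries as Tnfrsf21, Ltbr and Tnfrsf11a, is given above, and its part was not tested. In KO EAE against KO edgeR called none of the genes in the 4 pathway lists, with 3 NF-kappaB genes and 1 other receptor at an unadjusted p below 0.05, and DESeq2 called 1 gene in each of those same 2 lists.

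Regulatory T cell marker genes were also measured. The 5 listed (Foxp3, Il2ra, Ctla4, Ikzf2 and Ikzf4) summed to 1408 and 1340 CPM in WT, 852.9 and 808.1 CPM in KO, and 898.6 and 778.1 CPM in KO EAE, and 4 of 5 were called lower in KO than in WT in the count table. Leaving out WT replicate 1, KO replicate 1 or KO replicate 2 left 1 of 5 called, and leaving out WT replicate 2 left 2. Foxp3 fell by 0.38 ± 0.08 on the log2 scale (SE; edgeR, adjusted p = 0.0254; 0.106 to 0.185 with 1 WT or KO library left out), Il2ra by 0.87 ± 0.07 (SE; edgeR, adjusted p = 0.000829) and Ikzf2 by 0.78 ± 0.12 (SE; edgeR, adjusted p = 0.00965). None of the 14 T cell identity genes was called by edgeR or DESeq2 (1 at an unadjusted p below 0.05 in edgeR). In the reads recovered from the normalized table edgeR called 0 of 5 (4 at an unadjusted p below 0.05), with sums of 1096 and 1088 CPM in WT and 656 and 738.7 CPM in KO. Foxp3 was at -0.07 ± 0.14 there (SE; edgeR, adjusted p = 0.891), and at -0.07 in the authors' deposited table (adjusted p = 0.922). The part of these marker genes in the receptor values was not tested.

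The deposited normalized table, which holds WT and KO only, gave other values under the same library names. Its whole reads were recovered for 100% of values (tolerance 0.02 reads) and refitted with edgeR. All 8 receptors had a negative log2 change there, with a median of -0.39 over the members and 0.01 over all 12253 genes tested, 0 of 8 were called, against 0.0979% of all genes, and 4 of 8 were at an unadjusted p below 0.05, as were 1533 of the 12253 genes. Tnfrsf4 had the log2 change of largest size there. Its normalized values were 5275 and 5476 in WT and 2951 and 3185 in KO, with a log2 change of -0.80 ± 0.11 (SE; edgeR on recovered reads, adjusted p = 0.0803). Tnfrsf4 per read of Tnfrsf18 was 0.716 and 0.757 in WT and 0.437 and 0.486 in KO, with both WT libraries higher. Tnfrsf4 per read of Tnfrsf1a was 7.06 and 3.74 in WT and 2.93 and 2.92 in KO. Tnfrsf1b per read of Tnfrsf1a was 13.9 and 7.25 in WT and 8.19 and 5.96 in KO, so the groups overlapped there, unlike in the count table. Tnfrsf9 had 3984 and 4040 in WT and 3375 and 3264 in KO (log2 -0.27 ± 0.11, SE; edgeR, adjusted p = 0.393), and Tnfrsf18 had 7369 and 7238 against 6756 and 6558 (log2 -0.13 ± 0.10, SE; edgeR, adjusted p = 0.65), so both were lower in both KO libraries but by less. Tnfrsf1a had 747.3 and 1465 in WT and 1006 and 1090 in KO, so KO lay within WT and the log2 change of -0.07 ± 0.30 (SE; edgeR, adjusted p = 0.951) had the other sign than in the count table. Tnfrsf14 also changed sign, at -0.64 ± 0.62 (SE; edgeR, adjusted p = 0.73), from 63 to 113 recovered reads in a library.

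Levels differed between the tables unevenly. The WT mean in CPM in the normalized table over that in the count table was 3.502 for Tnfrsf18, 3.40 for Cd27, 2.47 for Tnfrsf4, 1.78 for Tnfrsf1b, 1.59 for Tnfrsf9, 1.48 for Tnfrsf25, 0.806 for Tnfrsf1a and 0.182 for Tnfrsf14. Over 11790 shared genes the median of this ratio was 0.763, and the 5th to 95th percentile ran from 0.131 to 2.10, so 3 of the 8 lay above that range. Bcl11b in the recovered reads changed by -0.87 ± 0.14 on the log2 scale (SE; edgeR, adjusted p = 0.0987), and in the authors' deposited table it was lower at -0.80 (adjusted p = 7.91e-08). The 11 myeloid and dendritic markers found in that table summed to 172.3 and 280 CPM in WT and 572.7 and 465.6 CPM in KO, with 0 of 10 tested called by edgeR and 5 at an unadjusted p below 0.05. Cd160 was called higher in the recovered reads (log2 2.17 ± 0.21, SE; edgeR, adjusted p = 0.0494). Most other pathway calls of the count table had smaller changes there and were not called: Rel was at -0.16 ± 0.27, Lta at -0.04 ± 0.21, Fas at 0.002 ± 0.14, Traf6 at 0.03 ± 0.13, Birc2 at 0.03 ± 0.16, Tnfsf14 at 1.03 ± 0.47 and Tnfrsf21 at 1.63 ± 0.39 on the log2 scale (SE; edgeR, adjusted p from 0.203 to 0.996). Ltbr and Tnfrsf11a were listed at 0 in WT replicate 1 of that table, and neither was called. Ltbr had a normalized value of 62.49 in WT replicate 2, against 69.47 and 92.74 in KO (log2 1.37 ± 1.49, SE; edgeR, adjusted p = 0.768). Tnfrsf11a had 104.5 in WT replicate 2, against 110 and 41.22 in KO (log2 0.53 ± 1.56, SE; edgeR, adjusted p = 0.928).

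In the authors' deposited table of KO against WT, 3 of 8 receptors passed an adjusted p of 0.05, all lower, against 1.64% of the 10396 genes with an adjusted p. The log2 change in the authors' deposited table was -0.74 for Tnfrsf4 (adjusted p = 2.57e-07), -0.47 for Tnfrsf1b (adjusted p = 0.00612) and -0.43 for Cd27 (adjusted p = 0.0264). The other 5 in the authors' deposited table were Tnfrsf9 at -0.25, Tnfrsf18 at -0.13, Tnfrsf1a at -0.05, Tnfrsf25 at -0.29 and Tnfrsf14 at -0.17, with adjusted p from 0.344 to 0.956. Tnfrsf14 and Tnfrsf21 had log2 changes of smaller size there than in the recovered reads (-0.64 and 1.63). The log2 changes of these sources may therefore not be the same measure. Cd160 was called higher in the authors' deposited table too, at a log2 change of 1.71 (adjusted p = 7.21e-18), and Nfkb2 lower, at -0.42 (adjusted p = 0.0448), while Tnfrsf21 was higher at 0.78 (adjusted p = 0.0176). The other pathway genes called in the count table, among them Rel, Nfkbib, Fas, Traf6, Birc2, Lta, Tnfsf14, Ltbr and Tnfrsf11a, had adjusted p from 0.431 to 0.995 in the authors' deposited table, and Tnfsf18 had none. Traf3 at -0.64 (adjusted p = 0.00282) and Relb at -0.53 (adjusted p = 0.0121) were lower in the authors' deposited table and were not called by edgeR in the count table.

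**Figure D4:**
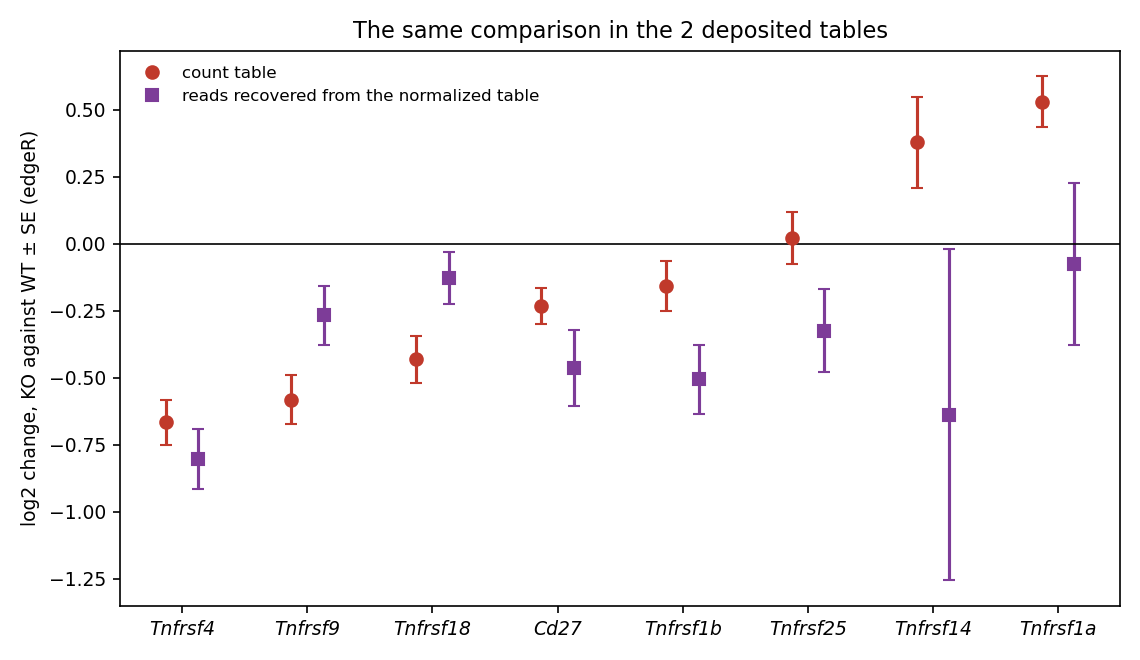
Log2 change of KO against WT for each receptor in the count table and in the reads recovered from the normalized table (edgeR; bars are ± 1 SE). Tnfrsf4 lies below 0 in both by more than its SE, and Tnfrsf1a, Tnfrsf14 and Tnfrsf25 lie above 0 in the count table only.

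On mm10, 6 of the 8 genes lie on chromosome 4 and Cd27 and Tnfrsf1a on chromosome 6. Tnfrsf4 (156013843 to 156016612) and Tnfrsf18 (156026164 to 156028895) are adjacent on chromosome 4, with 9551 bases between them. The flanking gene Sdf4, on the other side of Tnfrsf4, had a log2 change of -0.23 ± 0.08 (SE; edgeR, adjusted p = 0.133) and was not called. The gene beside Tnfrsf14, Fam213b, rose by 2.94 ± 0.14 on the log2 scale (SE; edgeR, adjusted p = 9.61e-05), the only nearest coding neighbour called apart from the Tnfrsf4 and Tnfrsf18 pair. Tnfrsf18 shares 414 exonic bases with the antisense gene Gm16008, and whether strand was used in counting is not given. Cd27 shares 129 with Mir8113, which lies on the same strand as Cd27. Reads of those stretches cannot be assigned to one gene.

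The genes with the most similar profile over the 6 libraries were chosen by the root mean square difference of centred log2 CPM among 10540 genes with at least 5 CPM. They were Pdp2 and Chchd10 for Tnfrsf4 (0.038 and 0.046), Ripk2 and Rpap3 for Tnfrsf9 (0.048 and 0.052), Grhpr and H2-K1 for Tnfrsf18 (0.032 and 0.034), and Timp2 and Pccb for Tnfrsf1a (0.042 and 0.045). Among the members themselves, Tnfrsf9 and Tnfrsf18 were nearest at 0.092 and Tnfrsf4 and Tnfrsf1a farthest at 0.516. These values describe 6 libraries and were not tested.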

How the data were processed

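RNA from regulatory T cells was sequenced in 6 libraries, grouped as WT, KO and KO EAE by their titles. The submitters' processing notes name HISAT2, HTSeq, DESeq2 and the build mm10. Their versions, the annotation and the strand use were not stated in the sources at hand. The authors deposited whole-number read counts per gene for all 6 libraries. They also deposited a normalized signal for WT and KO, counts divided by size factors, whose whole reads were recovered, and their own KO and WT comparison. Per the file headers, that comparison gives the mean signal, the log2 fold change, its SE, a test score, p-values and adjusted p-values. Rows that name no gene were left out: 25 of 24449 count rows (0.217% of reads at most) and 27 of 23420 normalized rows (0.284% at most).

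The count test was edgeR 4.0.16 in R 4.3.3 (filterByExpr with minimum count 10 and minimum total 15, TMM, glmQLFit and glmQLFTest, 1 coefficient per group, no block). Benjamini-Hochberg adjustment ran over all 14548 genes with a threshold of 0.05, and the SE of a log2 change was taken as its size over the root of F, which is approximate. The analysis was tested on simulated data. Alternatives were RLE scaling, no filter, a replicate block, scaling on T cell genes, a fit on 2 groups only, each library left out, DESeq2 1.42.0, edgeR on the recovered reads (12 genes called), and limma 3.58.1 on the normalized signal with a pseudocount of 1 or 0.5, with and without a filter on low values.

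The members and the gene lists were chosen with earlier results of these data known. Named genes were all members, Bcl11b, Foxp3, the genes of each list called in a comparison (up to 4 by size of change), the most read gene of each list, nearest coding neighbours, and the 2 most similar profiles per member. The lists were ligands and counter-receptors, adaptors and signal enzymes, NF-kappaB factors and inhibitors, other TNF receptor superfamily, and markers of regulatory T cells, T cell identity, CD8 T cells, myeloid and dendritic cells, B cells, plasma cells, NK cells, erythroid cells, and stromal and endothelial cells. Promoter windows are from RefSeq, with all 8 members matched by symbol.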

Additional observations from a re-analysis of the deposited data

How the results depend on the processing

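Leaving out a library leaves its group with 1, which is then assumed to vary like the others. With each of the 6 libraries left out in turn, 0 to 4 members were called for KO against WT (4 in the full fit) and 0 to 4 for KO EAE against WT (3 in the full fit). Genes called ranged from 846 to 3087 for KO against WT (1873 in the full fit), 0 to 313 for KO EAE against KO (2) and 603 to 3762 for KO EAE against WT (1362). Without KO EAE replicate 1, 60.7% of the calls for KO against WT were higher and 56% of those for KO EAE against WT, beside 73.1% and 79.1% in the full fit. The fit on 2 groups only called 3121, 0 and 782 genes for the 3 comparisons, and 1 member for KO EAE against WT. For KO EAE against WT, 1 member was also called without a filter on low counts and with T cell gene scaling, and DESeq2 called 5 members and 2213 genes. DESeq2 called 167 genes for KO EAE against KO.

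The normalized table gave 0 members for KO against WT in edgeR on recovered reads (12 genes) and in limma with a pseudocount of 1 (1 gene), with 0.5 (1 gene) and with no filter (18 genes). Signs differed from the count table there for Tnfrsf25 (-0.32 in recovered reads, -0.34 in the 3 limma fits), Tnfrsf14 (-0.637, and -0.553, -0.556 and -0.553), Tnfrsf1a (-0.0746 in recovered reads), Traf6 (0.0324 and 0.0247), Birc2 (0.0277 and 0.0353) and Fas (0.002 in recovered reads). The cause was not tested. Leaving out 1 library also turned signs of changes that were not called: Tnfrsf25 in KO against WT ranged from -0.0573 to 0.102, Tnfrsf18 and Tnfrsf1b in KO EAE against KO from -0.0151 to 0.151 and from -0.0324 to 0.152, and Tnfrsf26 and Btla in KO EAE against WT from -0.0183 to 0.136 and from -0.208 to 0.0518.

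Whether replicate numbers pair the samples is not given in the labels. Same-numbered libraries correlated at 0.01 (WT and KO), -0.09 (WT and KO EAE) and 0.2 (KO and KO EAE) in their deviations from group means. With 2 libraries in a group, these values cannot decide it. With a replicate block, 3 members and 1668 genes were called for KO against WT, 0 genes for KO EAE against KO, and 1 member and 1301 genes for KO EAE against WT.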

Other observations

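Other markers measured in the same libraries were also recorded for KO against WT, where 9.41% of all genes were called higher. Of 7 B cell genes 1 was higher, and their sum was 46.05 and 42.1 CPM in WT, 82.8 and 127.1 CPM in KO, and 72.8 and 144 CPM in KO EAE. Of 3 erythroid genes tested 3 were higher, with Hba-a1 and Hbb-bs at 0 in all libraries. Of 6 stromal and endothelial genes 2 were higher, of 2 plasma cell genes tested 1 was higher, and of 2 CD8 T cell genes none was called by edgeR or DESeq2 (0 at an unadjusted p below 0.05 in edgeR). These calls rested on few libraries: with 1 WT or KO library left out, 0 of 3 erythroid genes were called in 3 of 4 fits (without WT replicate 1, WT replicate 2 or KO replicate 2), and 0 of 6 stromal and endothelial genes in 3 of 4 (1 without KO replicate 2). No B cell gene was called in any of the 4, and a plasma cell gene was called only without WT replicate 2.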
